A study of Mus musculus with 2 samples.

Results

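The genes described are 5 potassium channel genes that the study's mouse annotation holds and that inner ear biology assigns to hair cells or to the stria vascularis: Kcnma1, Kcnn2, Kcnj10, Kcnq1 and Kcne1. They were defined by gene name, and the names were chosen with earlier results of these data known. Every annotation row with 1 of these names was taken. This gave 1077 of 1511492 rows and 5 of 27998 mouse genes (22048 of these protein-coding). The study compared 2 single-cell libraries of mouse cochlear cells at postnatal day 8. In the GFP group the cochleae received Anc80-GFP, a control virus, and in the Ikzf2 group they received Anc80-Ikzf2. Both groups had the genotype Myo15-Cre;Ai14, in which Cre driven by Myo15 regulatory sequence turns on the red protein tdTomato in hair cells, and cells with tdTomato were enriched by flow sorting. There was 1 library per group, how many animals each came from is not stated by the labels, and the values described below are gene models, which carry no sample values. Expression in either library was not analysed here, so the cell type in the name of the set rests on background knowledge and was not checked against these cells.

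Potassium leaves hair cells and returns to the fluid above them through the stria vascularis, the secretory epithelium of the lateral wall. Kcnma1 encodes the pore subunit of the large-conductance channel (BK) that voltage and calcium open together, and it carries the fast outward current of mature inner hair cells. Kcnn2 encodes a small-conductance calcium-activated channel (SK), which opens beside the cholinergic receptor of outer hair cells when efferent fibres inhibit them. Kcnj10 encodes an inward rectifier of strial intermediate cells that is needed for the endocochlear potential. Kcnq1 is the pore subunit and Kcne1 the single-pass partner subunit of the channel through which strial marginal cells secrete potassium, and loss of either causes deafness.

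The hair cell genes were the longest of the 5 and the partner subunit was the shortest. Kcnma1 (ENSMUSG00000063142) lay at chr14:23289431-24004859 on the minus strand of GRCm38 and spanned 715429 bases, and 116 of 22048 protein-coding genes were longer. Kcnn2 (ENSMUSG00000054477) lay at chr18:45268860-45686024 on the plus strand and spanned 417165 bases. Among the strial genes, Kcnq1 (ENSMUSG00000009545) spanned 320681 bases at chr7:143106362-143427042 on the plus strand. The other strial genes were far shorter. Kcnj10 (ENSMUSG00000044708) spanned 32876 bases at chr1:172341210-172374085 on the plus strand. Kcne1 (ENSMUSG00000039639) spanned 13468 bases at chr16:92346001-92359468 on the minus strand, below the median of 16568.5 bases over protein-coding genes.

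**Figure D1:**
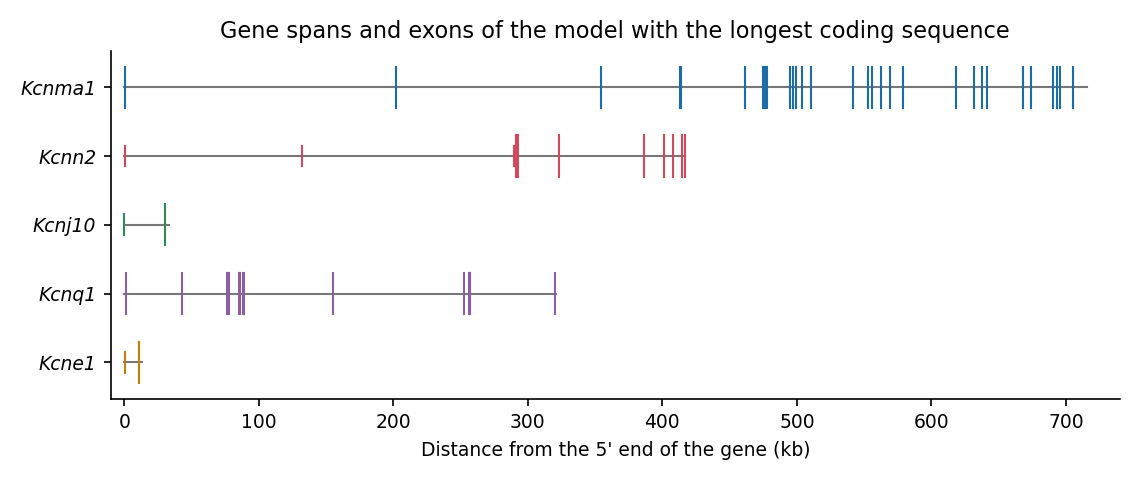
Distance from the 5' end of each gene in kb, on 1 common scale. Horizontal lines are gene spans and vertical marks are exons of the model with the longest coding sequence, tall where coding and short where wholly untranslated; marks are wider than the exons they stand for. The 30 exons of Kcnma1-003 spread over 704825 bases, and Kcnj10 and Kcne1 have 1 coding exon each.

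Exon number put Kcnq1 above Kcnn2, and Kcnma1 was again first. Taking the model with the longest coding sequence, Kcnma1 had 30 exons, all coding, for 3720 coding bases or 1239 amino acids. Kcnq1 had 16 exons, all coding, for 668 amino acids. In Kcnn2, 8 of 11 exons were coding, for 839 amino acids, and 3 untranslated exons came first. Kcnj10 and Kcne1 each had 2 exons and kept the whole coding sequence in 1 of them, for 379 and 129 amino acids. A coding sequence in 1 exon, found in 2 of these 5 genes, occurred in 16.7% of all protein-coding genes and in 19 of 92 potassium channel genes (20.7%). All 4 KCNE genes, the family of Kcne1, had it, as did 5 of the 15 inward rectifier genes.

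Length came from introns. The exons of the long Kcnma1, Kcnn2 and Kcnq1 models covered 0.630%, 0.883% and 0.947% of the transcript's span. In Kcnma1 the first intron alone held 200446 bases. The longest intron was 157170 bases in Kcnn2 and 97333 bases in Kcnq1. Each model of the compact genes had a single intron before the coding exon, of 27469 bases in Kcnj10 and 9842 bases in Kcne1-202. Kcne1-201, with the same coding sequence, has an intron of another length.

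Cassette coding exons, under the definition used here, were annotated in 1 of the 5 genes. A cassette coding exon was counted where 1 protein-coding model includes an internal, wholly coding exon and another joins the same 2 flanking splice sites without it, and it was called in frame where its length divides by 3. Kcnma1 had 9 such exon forms, 8 of them in frame, and Kcnn2, Kcnj10, Kcnq1 and Kcne1 had 0. Having at least 1 in-frame cassette exon, as 1 of these 5 genes did, was found in 12.4% of protein-coding genes and in 12 of 92 potassium channel genes. The number in Kcnma1 was high in both settings. Only 5 of 22048 protein-coding genes had more than 8 in-frame forms, and Kcnip2 and Kcnt2, also potassium channel genes, had 3 each. The in-frame share of the Kcnma1 forms was 8 of 9, beside 82.7% of all 4977 cassette exons in the annotation, so it did not stand apart from the background. Among all internal coding exons, cassette or not, 40.9% were in frame.

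**Figure D2:**
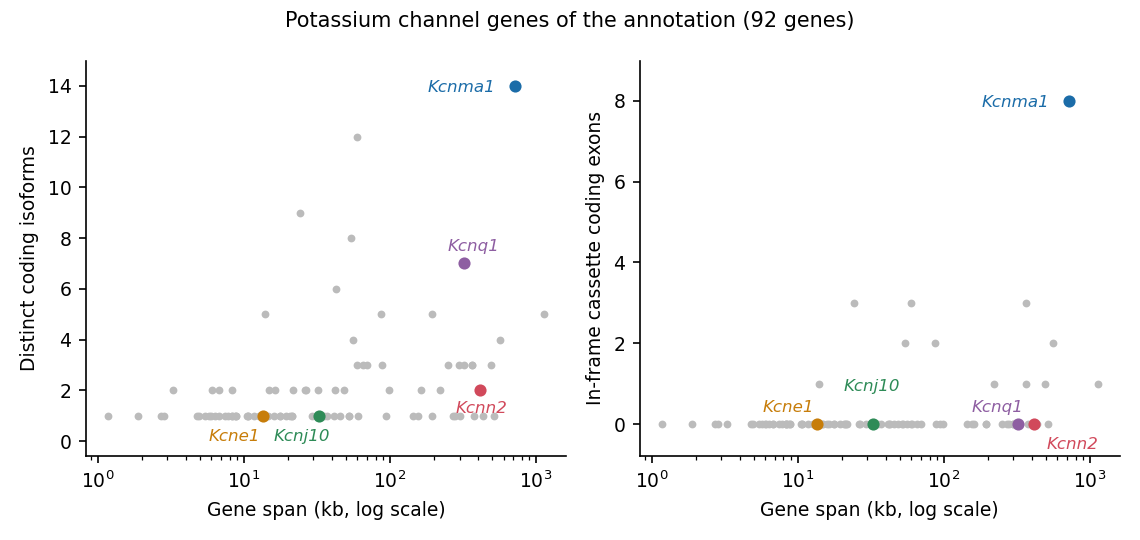
Gene span in kb on a log scale against the number of distinct coding isoforms (left) and of in-frame cassette coding exons (right) for the 92 potassium channel genes, each gene 1 point. Kcnma1 is highest in both panels with 14 isoforms and 8 in-frame exons, whereas Kcnn2 and Kcnq1 are also long genes and have 0 in-frame exons.

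The 9 forms of Kcnma1 are printed because they are a main source of difference between its annotated proteins, beside the exon swap, shifted splice sites and protein ends described further on. They are given in transcript order, 5′ to 3′ on the minus strand of chromosome 14 (GRCm38), read from GENCODE M21 transcripts whose exons are identical to the deposited ones. In the fourth line, which shows the longer of 2 overlapping forms, capitals mark the 9 bases that the shorter form of 174 bases lacks.
156-base exon, chr14:23494539-23494694: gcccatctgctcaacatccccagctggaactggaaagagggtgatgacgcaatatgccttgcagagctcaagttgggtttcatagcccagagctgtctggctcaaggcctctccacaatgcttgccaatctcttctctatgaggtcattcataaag
12-base exon, chr14:23449200-23449211: aagccgaaagcg
12-base acceptor extension, chr14:23442080-23442091, which is no cassette exon and in which capitals mark the last 2 bases: ttcacggagcAG
183-base form, chr14:23425567-23425749: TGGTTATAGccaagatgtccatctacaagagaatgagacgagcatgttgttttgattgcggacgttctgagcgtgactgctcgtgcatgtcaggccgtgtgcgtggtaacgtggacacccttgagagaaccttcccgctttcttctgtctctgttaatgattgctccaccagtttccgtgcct
first 9-base exon, chr14:23402870-23402878: ttttacatg
87-base exon, chr14:23390921-23391007: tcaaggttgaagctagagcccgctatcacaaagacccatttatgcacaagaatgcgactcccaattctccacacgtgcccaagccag
second 9-base exon, chr14:23387092-23387100: cagtctatg
81-base exon, chr14:23336040-23336120: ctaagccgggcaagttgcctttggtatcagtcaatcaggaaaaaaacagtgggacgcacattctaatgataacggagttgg
29-base exon, chr14:23306725-23306753: tgcaacaaggatgactagaatgggccaag

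These exons were used unevenly by the 13 long models of Kcnma1, meaning those with over 20 coding exons. The 156-base exon, 52 codons long, was in 12 of the 13, and Kcnma1-209 alone skipped it. The 174-base form was in 4 models, Kcnma1-003, Kcnma1-006, Kcnma1-202 and Kcnma1-209. The 183-base form was in Kcnma1-206 only. Both forms of this exon touch 6 cysteine codons. The gene's cysteine-rich exon, known as STREX for stress axis-regulated exon, is its best described alternative exon and changes how calcium, voltage and phosphorylation act on the channel. The annotation itself names no exon.

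At the other extreme lay very short exons. Of the 9 forms, 3 were at most 27 bases long, beside 7.98% of all cassette coding exons. They held 12, 9 and 9 bases and added 4, 3 and 3 codons. The 12-base exon was in Kcnma1-001 and Kcnma1-003, the first 9-base exon in Kcnma1-204, and the second in Kcnma1-201 and Kcnma1-207. Exons this short carry a handful of residues into the channel's intracellular part and leave the reading frame as it was.

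Choice among exons was concentrated at 1 place. The 183-base and 174-base forms, the 9-base exons and the 87-base exon, 5 forms in 4 separate regions, all lay between the same 2 flanking exons, 49596 bases apart, and all interrupted the same codon after its first base. Of the 13 long models, 9 had exactly 1 of these forms, 4 had 0 and 0 had more than 1. No model therefore joined any of these exons to another. Over all 9 cassette forms the 13 models held 11 distinct combinations, with 156 to 342 alternative bases each.

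**Figure D3:**
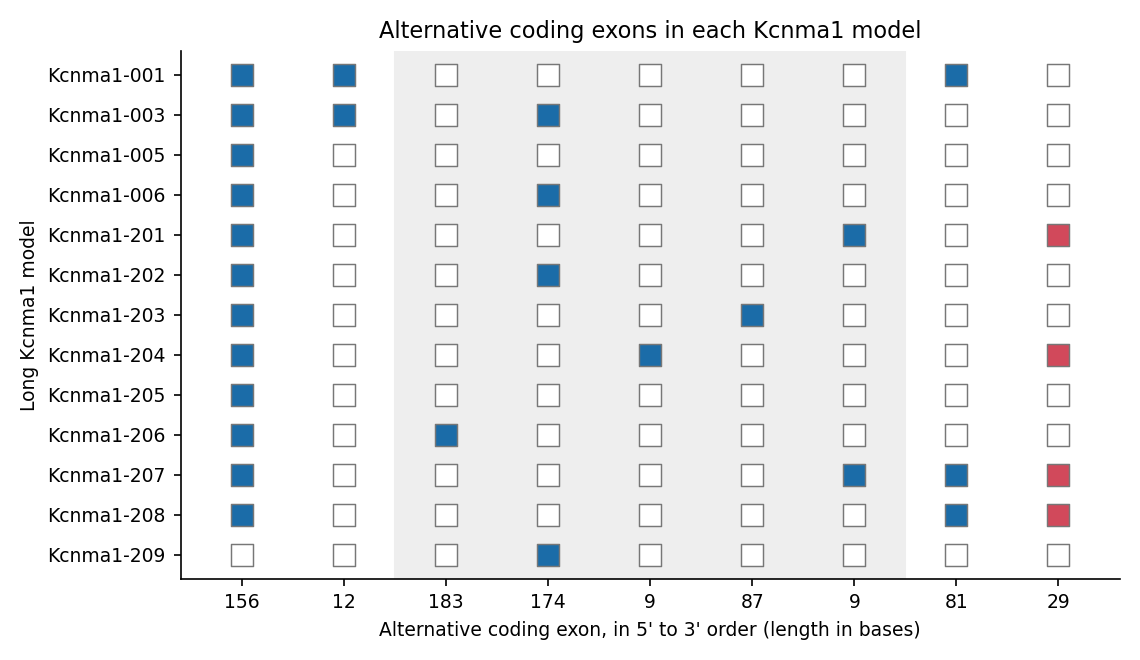
Alternative coding exons (columns, named by length in bases and set in 5' to 3' order) in the 13 long Kcnma1 models (rows). A filled square means that the model has the exon, blue for in-frame lengths and red for the 29-base exon; the grey band covers the 5 forms that lie between the same 2 flanking exons, where no row has more than 1 filled square.

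Kcnma1 also held a pair of coding exons of the same length that its models used in turn. The exon of 92 bases found in 12 long models was replaced in Kcnma1-205 by another of 92 bases, 97 bases further along, and 0 models had both. Their sequences matched at 58 of 92 positions, and 18 of 30 whole codons coded for the same amino acid. They are shown to make the likeness visible, common exon first.
Exon of 12 models, chr14:23526725-23526816: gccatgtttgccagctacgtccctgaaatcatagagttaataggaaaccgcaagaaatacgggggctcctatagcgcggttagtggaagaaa
Exon of Kcnma1-205, chr14:23526536-23526627: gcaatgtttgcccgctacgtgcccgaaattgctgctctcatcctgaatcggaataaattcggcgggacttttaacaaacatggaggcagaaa

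Such pairs, of equal length, between the same 2 splice sites and never together in a coding model, were looked for in every gene after this one had been seen. A pair was present in 1 of the 5 genes and in 0.417% of protein-coding genes. Kcnma1 had 2, since its 9-base exons also meet the definition although they match at only 4 of 9 positions. It was the only one of the 92 potassium channel genes with a pair. In GENCODE M21, a later annotation on the same build, the common 92-base exon was in 28 coding models, the other in 2, and 0 had both, although 1 model of another biotype had both.

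Small shifts of a splice site added to the variety of Kcnma1. An acceptor 12 bases upstream was used by Kcnma1-202, Kcnma1-203 and Kcnma1-206 and the inner acceptor by the 10 other long models. The last exon could begin 3 bases earlier, which added CAG. The added bases ended in AG in each of these cases and in the 183-base form, which is the letter pair that ends almost every intron. In contrast with these variable parts, 20 coding exon forms with 2350 bases in all were present in all 13 long models, out of 46 forms. Partial models account for some of the other forms. The models without a start codon begin at base 23803304 or 23650189 of chromosome 14, so they lack the exons before. These positions lie 3 bases upstream of exons 2 and 3 of Kcnma1-003, so the first coding exons there count as separate forms. Coding parts of last exons that end at different stop codons also count as separate forms.

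The carboxy-terminal end of the BK protein differed between models. Stop codons lay at 4 positions over the 11 coding models that had one. Kcnma1-001, Kcnma1-003, Kcnma1-005 and Kcnma1-006 stopped at chr14:23300021-23300023. Kcnma1-201, Kcnma1-204, Kcnma1-207 and Kcnma1-208 stopped 130 bases further along the same exon, and these were the 4 models with the 29-base exon, whose length is 2 bases beyond whole codons. Kcnma1-203 and Kcnma1-205 ran past the donor site of the exon before and stopped there after 25 bases, the first of which were GT. Kcnma1-002, with 2 exons and 576 coding bases, stopped in its second. The last coding bases of each end are printed so that the tails can be compared, with stop codons in capitals and, in the second line, the 3 added bases as well.
Kcnma1-003, chr14:23300021-23300042: aaaagaaatggtttacagaTGA
Kcnma1-006, chr14:23300021-23300045: CAGaaaagaaatggtttacagaTGA
Kcnma1-207, chr14:23299891-23299920: ccaatcagagaagttgaagatgaatgtTGA
Kcnma1-203, chr14:23309015-23309039: gtacgttcaggaagagcggcttTGA
Kcnma1-002, chr14:24002797-24002826: ggactcacatctcagatgtgtggttgcTAG

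Many of these models are partial, which limits what their number means. Kcnma1 had 14 distinct coding isoforms, and 47 protein-coding genes had more, but only 5 of the 14 had both a start and a stop codon. The 9 models Kcnma1-201 to Kcnma1-209 lacked a start codon, and 3 of them, Kcnma1-202, Kcnma1-206 and Kcnma1-209, also lacked a stop codon. Among the 5 complete models alone, 3 in-frame cassette exons remained. All 13 of the Kcnma1 coding sequences that could be read were free of internal stop codons.

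Coding isoforms were also several in Kcnn2 and Kcnq1. At least 2 distinct isoforms were annotated in 3 of the 5 genes, beside 45.5% of protein-coding genes. Kcnn2 had 3 coding models with 2 isoforms, since Kcnn2-001 and Kcnn2-201 share all 2520 coding bases. Kcnn2-202 codes for 434 amino acids where the longer isoform codes for 839. It starts 795 coding bases later, lacks an exon of 419 bases at chr18:45592006-45592424 and uses an acceptor shifted by 1 base. Together the exon and the shift take out 420 bases, which divides by 3 although neither number does so alone. Neither change meets the definition of an in-frame cassette exon, and the short isoform still stays in frame. The other SK genes, Kcnn1, Kcnn3 and Kcnn4, also had 0.

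The start of the Kcnn2 protein differed between annotations. For Kcnn2-001, with the same identifier, version and exons, the coding sequence had 2520 bases here and 1725 in GENCODE M21. That difference of 795 bases takes the protein from 839 to 574 amino acids. The later start in M21 is also the start of Kcnn2-202.

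In Kcnq1, the pore subunit of the strial channel, most isoforms were fragments of the 5' end. Of its 7 isoforms, 2 were complete, Kcnq1-001 with 668 amino acids and Kcnq1-007 with 440. The other 5 began at 5 different bases, held 90 to 232 coding bases and all broke off at the same base in the second exon of the full-length model, after 40 of its 91 bases. They are marked in the file as having no known end. Several of these fragments also held coding exons that the complete models lack. In Kcnq1-004, for example, there was a coding exon of 60 bases at chr7:143148748-143148807. Kcnq1-005 and Kcnq1-006 began with coding exons at bases 143109194 and 143106362, outside the first exon of the complete models.

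Kcnq1-007 starts 192 coding bases later than Kcnq1-001 and has a 5' UTR of 0 bases. It also lacks 4 exons in a row, of 76, 95, 47 and 62 bases. These sum to 280 bases, 1 beyond whole codons, and the last exon is therefore read in another frame. Its coding part there has 4 bases, beside 216 in Kcnq1-001. The junctions are printed with the bases after the junction in capitals, since the short one shows the stop codon directly behind it. Each line joins 30 bases before an intron to bases after it, and its positions are those of the first and last base shown.
Kcnq1-001, into the first of the 4 exons, chr7:143261347-143358739: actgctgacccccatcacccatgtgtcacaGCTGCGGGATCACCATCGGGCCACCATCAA
Kcnq1-001, into the last exon, chr7:143363665-143425939: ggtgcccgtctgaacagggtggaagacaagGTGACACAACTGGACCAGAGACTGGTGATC
Kcnq1-007, into the last exon, chr7:143261347-143425913: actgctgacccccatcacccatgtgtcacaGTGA
Both models enter the last exon at the same base. In Kcnq1-007 the final A of the exon before is followed by G and then by TGA, whereas Kcnq1-001 reads the same bases as part of other codons. The end of the Kcnq1 coding sequence encodes the channel's intracellular carboxy-terminal tail, which binds calmodulin and assembles the subunits. The stop codons of the 2 models lie 212 bases apart.

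Within the KCNQ family, Kcnq5 had 2 in-frame cassette exons, and Kcnq1 was without one under the definition used. Kcnj10 and Kcne1 had 1 coding isoform each, held in a single coding exon. Kcne4 and Kcnj16 also had 1 coding exon in the model with the longest coding sequence, but 2 and 3 coding isoforms.

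Distinct 3' ends matter for a library of this kind, whose reads lie near the poly(A) tail. At least 2 ends of protein-coding models were annotated in 4 of the 5 genes, beside 46.3% of protein-coding genes and 42 of 92 potassium channel genes. Kcnma1 had 8, Kcnn2 and Kcnq1 had 3 each, Kcne1 had 2 and Kcnj10 had 1. With ends within 24 bases merged, Kcnma1 had 7 and Kcnn2 had 2. Some Kcnma1 ends follow no annotated 3' UTR. Those at bases 23309015 and 23300021 of chromosome 14 are the last base of a stop codon, with a 3' UTR of 0 bases. The end of Kcnma1-005 at base 23299891 is the last base of the stop codon of Kcnma1-201. The end at base 23289431 belongs to models without a stop codon. In Kcnn2 all 3 fell within 142 bases. In Kcnq1, 1 of the 3 is the place where the 5 fragments break off, 277505 bases before the outermost end, and these models carry no stop codon and no known end. Without them Kcnq1 had 2 ends, 917 bases apart. The inner one, of Kcnq1-007, is the last base of the stop codon of Kcnq1-001.

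The 3' ends of Kcnma1 lay around the last exons with 2 exceptions. Kcnma1-002 ended at base 24002656 of chromosome 14, inside the first intron of Kcnma1-003. The partial models Kcnma1-201 to Kcnma1-209 begin further downstream. At the last exons, ends lay between 8994 bases before the stop codon of Kcnma1-003 and 1327 bases after it, apart from Kcnma1-206 and Kcnma1-209. Those models ended in a separate last exon of 22 bases at chr14:23289431-23289452, and their end lay 9263 bases beyond the next one. The longest 3' UTR of Kcnma1 had 1197 bases, and 7774 protein-coding genes had a longer one.

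A long intergenic RNA gene lay between the outermost end and the rest. A830039N20Rik, a single exon of 1353 bases at chr14:23292291-23293643 on the strand of Kcnma1, began 5051 bases beyond the nearest Kcnma1 end upstream of it and stopped 2860 bases before the outermost one. In GENCODE M21 this gene was absent, and a Kcnma1 model that the deposited annotation lacks had a 3' UTR of 7730 bases that ended at the same base and held all 1353 bases. Reads from that stretch would be counted for A830039N20Rik under the deposited models and for Kcnma1 under M21; their number was not analysed here.

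**Figure D4:**
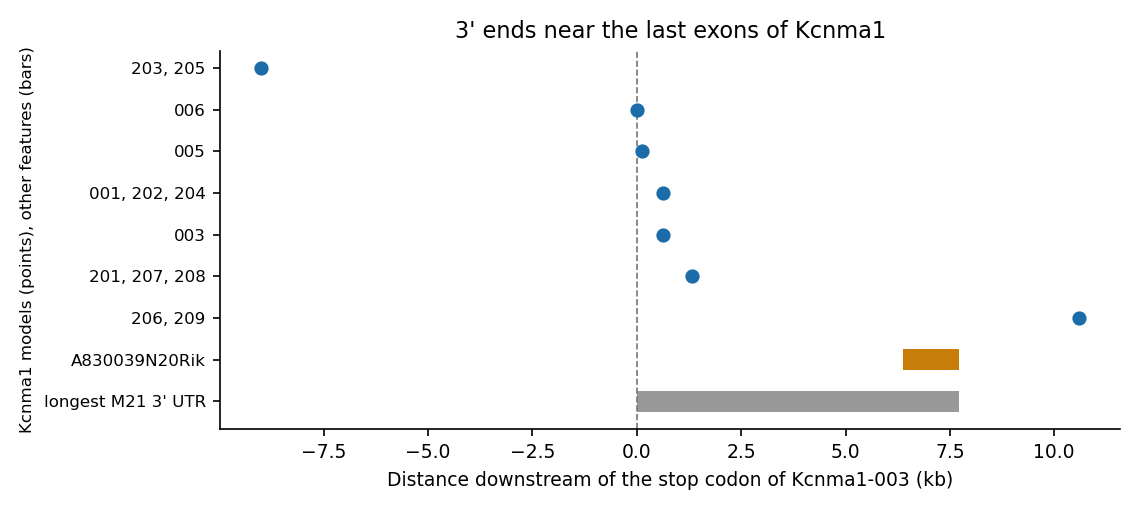
Distance in kb downstream of the stop codon of Kcnma1-003 (dashed line at 0). Points are the 3' ends of Kcnma1 models, named by their numbers, and bars are A830039N20Rik of the deposited annotation and the longest Kcnma1 3' UTR of GENCODE M21; the bars end together at 7730 bases, beyond every Kcnma1 end but that of models 206 and 209. Kcnma1-002 lies outside the range drawn.

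The strial genes with a single coding exon had the longest 3' UTRs of the 5. Kcnj10 had 1 model with 4025 bases, beside 1140 coding bases, and it was the longest among the 15 inward rectifiers, whose median was 2195 bases. Kcne1 had 2 models with the same coding sequence and 3' UTRs of 2564 and 133 bases, so that its ends lay 2431 bases apart. The longer was also the longest among the 4 KCNE genes. Kcnq1-001 had 917 bases, the shortest of the KCNQ genes, whose longest was 8784 bases in Kcnq3. Over all protein-coding genes the median of the longest 3' UTR was 713.5 bases.

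**Figure D5:**
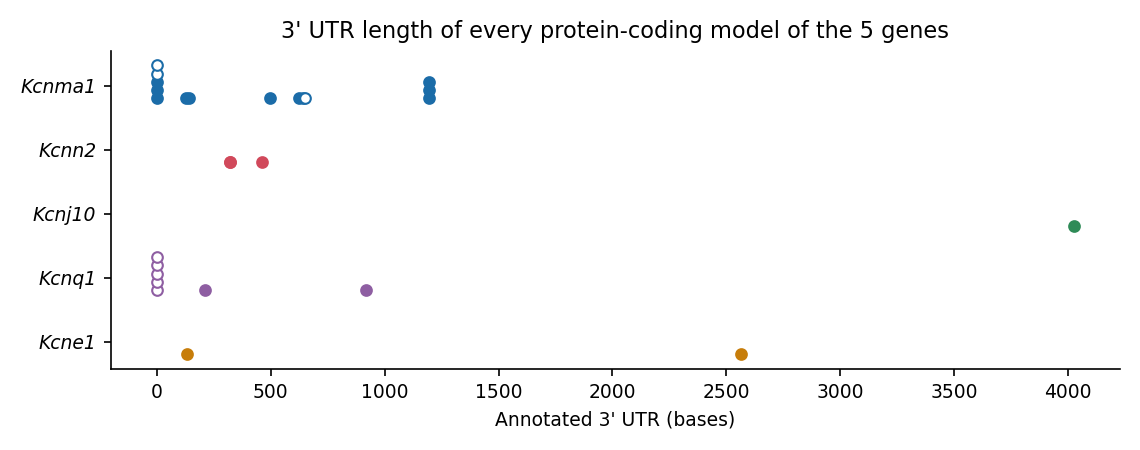
Annotated 3' UTR in bases for every protein-coding model of the 5 genes, 1 point per model, stacked where lengths are equal. Filled points have an annotated stop codon and open points have none; Kcnj10 at 4025 bases and the long Kcne1 model at 2564 bases lie beyond all models of the other 3 genes.

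Many coding models of these genes had no polyadenylation hexamer close to their end. The motif AATAAA or ATTAAA, on the transcript strand, was looked for in the last 50 bases of each coding model whose sequence could be read, whose end is not marked as unknown and whose 3' UTR has at least 50 bases. A match is a run of letters and no measured site. It was present in 5 of 14 models of the members, beside 68.8% of 32300 models of protein-coding genes. In Kcnma1 it was in 1 of 8, the short Kcnma1-002, where AATAAA began 27 bases before the end. In Kcnj10 and in Kcnq1-001 it began 24 bases before the end, and in Kcnn2-202 and Kcnn2-001 it began 25 and 26 bases before. These are counts of models and not of separate ends. Kcnma1-201, Kcnma1-207 and Kcnma1-208 share an end without the motif, as do Kcnma1-202 and Kcnma1-204. The M21 model with the 7730-base 3' UTR had a hexamer 30 bases before its end. For Kcne1 no transcript of the same version could be read; in its M21 model that ends 19 bases further, ATTAAA began 40 bases before the end, and the short model had none.

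Other genes had exons within the spans of the 3 long channel genes. On the same strand there was A830039N20Rik in Kcnma1 alone. On the opposite strand, Gm29626 lay in Kcnma1 without touching its exons. A330093E20Rik, which lies mostly beyond the 3' end of Kcnn2, shared 284 exonic bases with Kcnn2 and overlapped 1 of its coding exons. Kcnq1 held 3 antisense genes. The best known is Kcnq1ot1, a long RNA that silences neighbouring genes on the paternal chromosome, a single exon of 84395 bases at chr7:143212155-143296549. It covered 1 Kcnq1 coding exon of 121 bases. Gm28821 and 4933417O13Rik shared 0 exonic bases with Kcnq1. Kcnj10 and Kcne1 held no other gene.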

How the data were processed

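The study made 2 single-cell 3' libraries, 1 per group (GFP and Ikzf2), grouped by their treatment labels. The submitters' processing notes name Cell Ranger 2.0.2 without its role. Of the aligner, no name or setting is given in the sources used here. The deposited file used here was a gene annotation for the whole series with GRCm38.p4 positions and a gene build of 2016, per the file headers. The values used from this deposited file are positions in bases, and it has 0 columns of per-sample values, so depth bears on no value here. GFP and Ikzf2 expression was not analysed here.

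Models of the 5 genes were compared with those of all 22048 protein-coding genes as a description, without a test. Coding lengths include the stop codon, distinct coding exon chains were counted as isoforms, and 3' ends were distinct last bases of protein-coding models. All 5 genes, with all their alternative coding exons and 3' ends, were named by rule, and genes of the BK, SK, inward rectifier, KCNQ, KCNE and strial lists and of all 92 potassium channel symbols were named where they set an extreme of their list; some genes that the rule names are not reported here. The members and lists were chosen with earlier results of these data known. Sequences were read from GENCODE M21 (GRCm38) transcripts with the same identifier, version and exons, which were found for 13 of 15 Kcnma1, 7 of 7 Kcnn2, 1 of 1 Kcnj10, 7 of 7 Kcnq1 and 0 of 2 Kcne1 transcripts. The counting was tested on simulated data, 200 gene models, all right in every measure. Python 3.11.15 and Matplotlib 3.10.9 were used. The alternatives tried were complete or all biotypes of transcripts, other definitions of skipping, merged ends, either strand and the M21 models.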

Additional observations from a re-analysis of the deposited data

How the results depend on the processing

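Each count was repeated under the alternatives, 105 in all over the 5 genes, and 90 stayed within 1.5 times the value given. With complete coding sequences only, the coding isoforms of Kcnma1 were 5 and those of Kcnq1 were 2, and the in-frame cassette exons of Kcnma1 were 3, because fewer models were counted. With GENCODE M21, the coding isoforms were 31 in Kcnma1 and 4 in Kcnn2, the 3' ends of Kcnn2 were 5, the pairs of equal-length exons in Kcnma1 were 4 (an alternative added after the data were seen), and genes on the same strand within the span were 0 for Kcnma1 and 8 for Kcnq1, because other models are listed there. With models of every biotype, Kcnn2 had 7 ends, and with every protein-coding transcript counted, Kcne1 had 2 isoforms. With any flanking exons, Kcnq1 had 1 in-frame cassette exon. On either strand, the genes within the span were 2 for Kcnma1, 1 for Kcnn2 and 3 for Kcnq1. The in-frame cassette exons of Kcnma1 stayed within 1.5 times under the other 4 alternatives. No paired analysis was possible because the annotation holds no sample values and each group had 1 library. Isoform counts show what was annotated, not what these cells express, and no read was counted here.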

Other observations

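The strial potassium cycle holds more than its channels. Slc12a2, the cotransporter that brings sodium, potassium and chloride into marginal cells, had 27 coding exons and 1 isoform. Kcnj16, an inward rectifier that pairs with Kcnj10, had 4 distinct 3' ends, the most among the 12 genes listed for this cycle.

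Among the other potassium channel genes, in-frame cassette exons sat in genes of several families. Kcnip2, which encodes a partner of voltage-gated channels, had 3 in-frame exons of 4 cassette exons. Kcnt1 and Kcnt2, sodium-activated relatives of the BK channel, had 2 and 3. Kcnj15 had 8 distinct 3' ends, as many as Kcnma1, within a span of 42703 bases.

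GENCODE M21 lists 2 in-frame cassette exons of Kcnma1 beyond those described. They have 162 bases at chr14:23803140-23803301 and 9 bases at chr14:23432233-23432241. The first is already exon 2 of Kcnma1-003 in the deposited annotation, where it was not counted as a cassette exon. The second of these lies between the same flanking exons as the 5 forms described, so that exon choice at that place is wider in the later annotation.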
